A study of Mus musculus with 366 samples.

Results

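Aortas of BALB/cJ F1 mice were compared with aortas of C57BL/6J F1 mice, using every array whose strain label is BALB/cJ (4 arrays) or C57BL/6J (6 arrays), 10 arrays of the many that cover 101 strains. All of these mice were females of 24 weeks that had eaten chow for 8 weeks and a Western diet for 16 weeks, and all carried the human ApoE-Leiden and CETP transgenes. Each mouse was the offspring of a female of the named inbred strain and a transgenic C57BL/6J male. The BALB/cJ F1 mice therefore carried 1 BALB/cJ and 1 C57BL/6J allele at autosomal loci, whereas the C57BL/6J F1 mice carried C57BL/6J alleles alone, and both groups shared the transgenes. The transgenes alter the handling of plasma lipoproteins and are used to make mice prone to atherosclerosis. The aorta was taken from the arch to the mid-abdomen after removal of the surrounding fat, and the RNA of each mouse was hybridized to its own array. The labels give no batch, and they do not say whether littermates were used.

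BALB/c and C57BL/6J are classical laboratory strains that differ in their MHC haplotype, in coat colour and in resistance to several infections, and C57BL/6J is the standard background for experimental atherosclerosis. The wall of the aorta consists mainly of smooth muscle cells between elastic layers, with an endothelium on the inner side and fibroblasts on the outer side. Because an F1 holds only 1 copy of each BALB/cJ allele, a transcript made by the BALB/cJ allele alone would be measured from that copy, and a transcript lost from the BALB/cJ allele would still be made from the C57BL/6J copy.

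Of 45037 probe sets tested, 1532 passed limma's test at an adjusted p of 0.05, which is 3.4% of all. In BALB/cJ F1 aortas 337 of them (0.748% of all) were higher and 1195 (2.65%) were lower. The median fold of the probe sets that passed was 1.71 for those higher and 1.49 for those lower, and the median difference of all probe sets was -0.02 on the log2 scale. At least a 1.5-fold difference was reached by 233 higher and 579 lower probe sets. With 1 probe set for each of 17097 genes, 745 genes passed (4.36%), of which 131 (0.766% of all) were higher and 614 (3.59%) were lower. The 4 BALB/cJ values did not overlap the 6 C57BL/6J values at 1401 of the 1532 probe sets, while 6.59% of all probe sets had groups that did not overlap.

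The arrays were not of equal standing. The array medians were close, between 3.22 and 3.32 on the log2 scale. C57BL/6J replicates 1 and 2 correlated with replicates 3 to 6 at no more than 0.985, whereas replicates 3 to 6 correlated with each other at 0.992 or more. The bioB spike-in controls, bacterial transcripts added in a fixed amount before hybridization, read between 8.23 and 8.63 on the BALB/cJ arrays, between 6.68 and 7.44 on the C57BL/6J arrays and between 6.62 and 6.96 on the arrays of BALB/cByJ, a close substrain. The BALB/cJ arrays were thus above all arrays of both other groups in this control. Control signal and strain cannot be told apart between the 2 main groups, which do not overlap. The same holds between BALB/cJ and BALB/cByJ. The other controls separated the same way. On the BALB/cJ arrays bioC read 9.24 to 9.54, bioD 11.41 to 11.68 and cre 12.63 to 12.82. On the arrays of both other groups they read no more than 8.73, 10.87 and 12.60. With the control signal as a covariate 1356 probe sets were higher and 527 lower, and 173 of the original 1532 were among them. In that fit 28% of the calls were lower, against 78.0% without it. Because the 2 main groups do not overlap in this signal, such a fit extrapolates from the spread within groups. Its differences and calls, here and below, are therefore not strain differences corrected for the control. Leaving out 1 array gave between 685 calls (without C57BL/6J replicate 3) and 1726 (without BALB/cJ replicate 1), and 691 to 792 also without C57BL/6J replicate 4 or BALB/cJ replicate 2, 3 or 4.

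The largest rises were in the major histocompatibility complex on chromosome 17. H2-D1, a class I heavy chain that presents peptides to cytotoxic T cells, read 8.98, 8.38, 8.91 and 8.48 in the BALB/cJ F1 (probe set 1452544_PM_x_at), against a range of 2.38 to 2.94 with a median of 2.53 in the C57BL/6J F1. H2-Ea, the alpha chain of the class II molecule I-E, read 8.69, 8.16, 8.74 and 9.29 against a range of 2.85 to 3.30 with a median of 2.91. All BALB/cJ values of both genes lay far above all C57BL/6J values. The difference was 6.12 ± 0.15 (SE) on the log2 scale for H2-D1, with an adjusted p of 3.96e-09 in limma, and 5.71 ± 0.19 for H2-Ea, with an adjusted p of 4.46e-08. C57BL/6J is a strain known to make no I-E alpha chain.

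Other probe sets of the same 2 genes did not read alike. A second probe set of H2-D1 (1427651_PM_x_at) was higher by 5.28, but the brightest, with means of 10.59 and 10.78, differed by -0.19 with an adjusted p of 0.672 in limma. Class I genes are near-identical in sequence, and probe sets marked x can bind several of them, so the H2-D1 signal is uncertain as to the gene. The strains differ in MHC haplotype, and whether the H2-D1 probe sets that rose read an allele rather than the gene's level was not tested. A second probe set of H2-Ea rose by 2.00 with an adjusted p of 0.0065 in limma, and the third, near the low end of the scale in both groups, differed by 0.11. The other class II chains had differences of -0.13 for H2-Aa, 0.11 for H2-Ab1 and 0.12 for H2-Eb1, none past the test. H2-Q10, a secreted class I molecule, fell by 1.09 with an adjusted p of 0.000915 in limma, and its BALB/cJ values of 7.34 to 7.92 lay below the C57BL/6J range of 8.57 to 8.80.

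**Figure D1:**
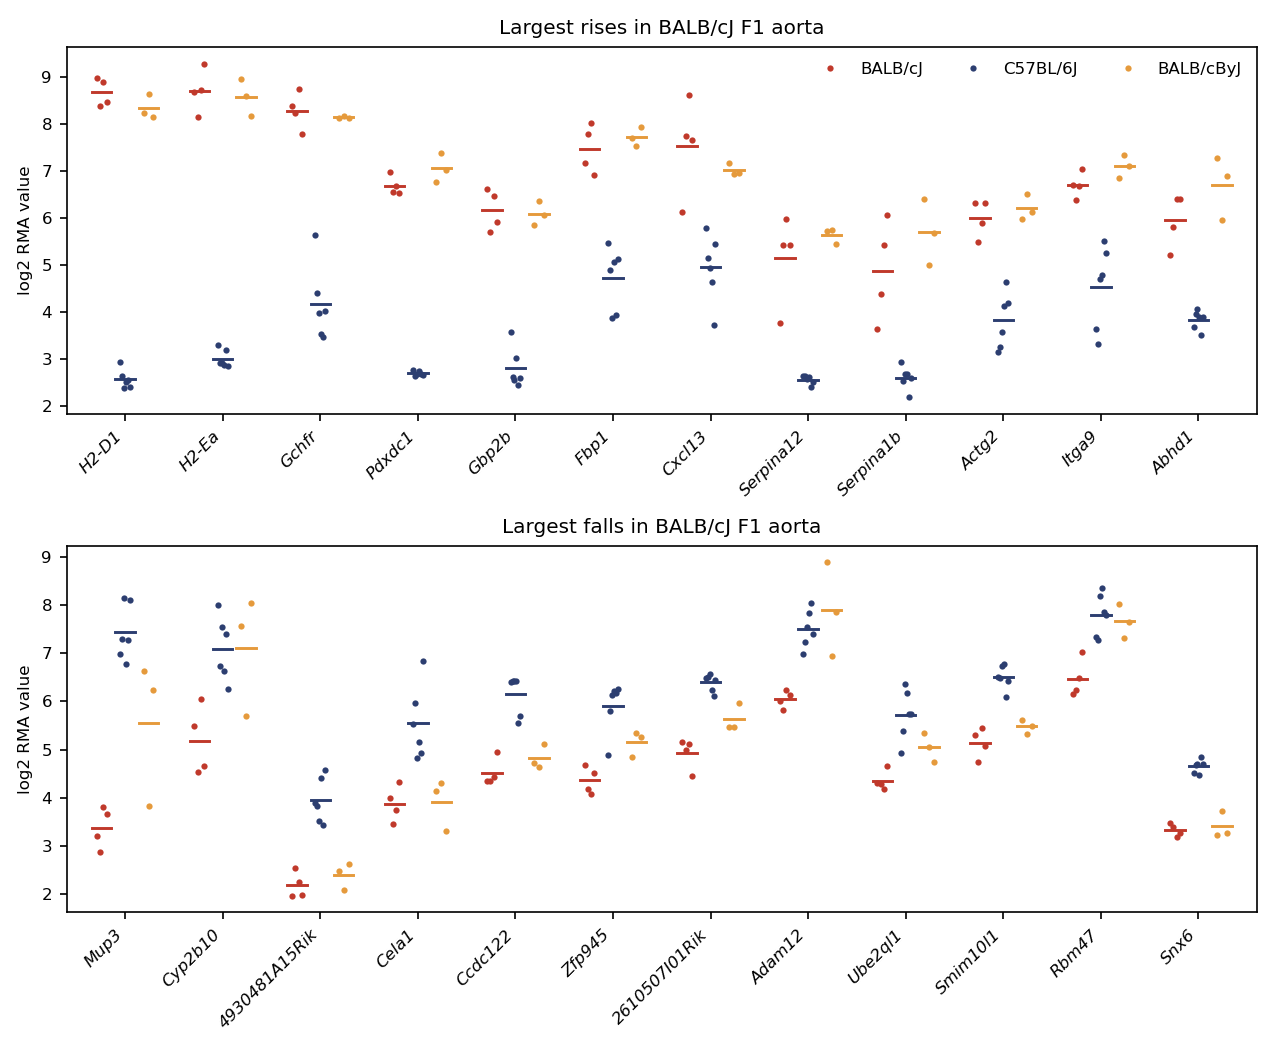
Log2 RMA value (vertical axis) of the 12 genes with the largest rises (upper panel) and the 12 with the largest falls (lower panel) in BALB/cJ F1 aorta, among probe sets that passed limma's test with groups that do not overlap. Each point is 1 array of BALB/cJ (4, red), C57BL/6J (6, blue) or BALB/cByJ (3, orange) and each bar is the group mean. In every gene shown all red points lie to 1 side of all blue points.

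Gchfr and Pdxdc1 followed with more than a 15-fold difference. Gchfr encodes the feedback regulator of GTP cyclohydrolase, the enzyme that starts the synthesis of tetrahydrobiopterin, a cofactor of nitric oxide synthases. It read 8.39, 8.23, 8.76 and 7.79 in the BALB/cJ F1, and from 3.47 to 5.65 with a median of 3.99 in the C57BL/6J F1. The highest C57BL/6J value was that of replicate 1, and all 4 BALB/cJ values were above it. The difference was 4.12 ± 0.38, a fold of 17.4, with an adjusted p of 0.000439 in limma.

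The enzyme that Gchfr restrains, Gch1, differed by -0.24 and the endothelial synthase Nos3 by -0.16, and neither passed the test. Of 25 measured genes of nitric oxide, cGMP and vasoactive peptides, 1 was higher (Gchfr) and 1 was lower, beside 0.766% and 3.59% of all genes. The lower one was Nosip, an interacting protein of nitric oxide synthase, which fell by 0.40 with an adjusted p of 0.0177 in limma. The BALB/cByJ mean of Nosip was 5.30, as in C57BL/6J, against 4.90 in BALB/cJ. The median difference of these 25 genes was -0.03, beside -0.05 over all 17097 genes.

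Pdxdc1, a gene of the pyridoxal-dependent decarboxylase family, read 6.99, 6.55, 6.70 and 6.54 in the BALB/cJ F1 and between 2.63 and 2.76 in the C57BL/6J F1 with probe set 1419327_PM_at. The rise was 4.004 ± 0.09, and the groups were far apart. The 2 other probe sets of the gene fell, 1452705_PM_at by 1.21 with an adjusted p of 0.00048 in limma and 1428200_PM_a_at by 0.56 with an adjusted p of 0.0257 in limma. Pdxdc1 was 1 of 4 genes called in both directions by different probe sets, the others being Cdc27, Mga and Tmie, which are named because they are few. Of the genes called with more than 1 probe set, 54 had all of them called alike, 391 had all of the same sign but not all called, and 238 had another probe set of opposite sign that was not called. Whether a base difference between the strains lies under the probes of these sets was not tested.

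The next rises were in genes of interferon response, metabolism, chemotaxis and muscle. Gbp2b, an interferon-induced guanylate-binding GTPase, read 6.63, 5.70, 6.48 and 5.92 in the BALB/cJ F1 against 2.45 to 3.57 with a median of 2.60 in the C57BL/6J F1, a difference of 3.39 ± 0.25. Fbp1, fructose-1,6-bisphosphatase of gluconeogenesis, read 7.17, 7.80, 8.02 and 6.92 against 3.88 to 5.46 with a median of 4.98, a difference of 2.75 ± 0.34. Both sets of values were well apart. Cxcl13, the chemokine that attracts B cells, read 6.14, 7.76, 8.63 and 7.67 against 3.73 to 5.79 with a median of 5.05, so the lowest BALB/cJ array came close to the highest C57BL/6J array. Its difference of 2.60 ± 0.47 had an adjusted p of 0.0169 in limma. The fit with the bioB signal as a covariate, which extrapolates between groups that do not overlap, gave -0.66.

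Serpina12, which encodes the adipokine vaspin, and Serpina1b, which encodes an alpha-1-antitrypsin, are neighbours within 1 Mb on chromosome 12 of the GRCm38.p6 assembly. Serpina12 read 3.77, 5.42, 5.98 and 5.42 in the BALB/cJ F1 and no more than 2.63 in the C57BL/6J F1. Serpina1b read 3.64, 4.38, 5.43 and 6.06 and no more than 2.93. In both genes BALB/cJ replicate 1 was the lowest of its group and still above every C57BL/6J array. The rise was 2.59 ± 0.33 for Serpina12 and 2.28 ± 0.38 for Serpina1b, a gene with near-identical copies beside it, so its signal is uncertain as to the gene. The other probe set of Serpina12, near the low end of the scale, differed by 0.21 with an adjusted p of 0.548 in limma. Abhd1, a gene of the alpha/beta hydrolase family, rose by 2.13 ± 0.22.

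The falls were smaller than the rises, Mup3 excepted. Mup3, a major urinary protein made mostly in liver, read 3.20, 2.87, 3.80 and 3.65 in the BALB/cJ F1 against 6.79 to 8.15 with a median of 7.28 in the C57BL/6J F1. The fall of 4.05 ± 0.29 had an adjusted p of 8.92e-05 in limma. Mup genes are near-identical copies of each other, so this signal is uncertain as to the gene. In BALB/cByJ F1 the 3 arrays read 6.62, 3.82 and 6.25, so 2 of them were close to the C57BL/6J range and 1 was close to the BALB/cJ range.

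The other falls ran from -1.91 to -1.32. Cyp2b10, a cytochrome P450 induced through the receptor CAR, read 5.48, 4.54, 6.06 and 4.66 against 6.25 to 8.01, a difference of -1.91 ± 0.38. Cela1, an elastase, fell by 1.67 ± 0.36, and Adam12, a membrane metalloproteinase, fell by 1.46 ± 0.19, with BALB/cJ values of 5.83 to 6.24 below the C57BL/6J range of 6.99 to 8.05. Snx6, a sorting nexin of the retromer, fell by 1.32 ± 0.09 with 1 probe set (adjusted p 8.44e-05 in limma), while its other 3 probe sets differed by -0.33, -0.13 and 0.13 and none passed. The remaining falls were in 4930481A15Rik, Ccdc122, Zfp945, 2610507I01Rik, Ube2ql1, Smim10l1 and Rbm47. Other probe sets differed by 0.01, -0.17 and -0.08 for Smim10l1, by 0.19 for Ube2ql1 and by -0.73 for 2610507I01Rik, and none of them passed. Zfp945, a zinc finger gene on chromosome 17, had 7 called genes among 27 measured within 1 Mb, beside 6.13% of all genes with a called probe set. Its other 2 probe sets, at 0.13 and 0.02, did not pass. With the bioB signal as a covariate the differences of Zfp945 and Ube2ql1 were 0.50 and 0.10.

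By the exact two-sided permutation test over the 210 splits of 4 and 6 arrays, 62 of the 67 named probe sets that passed limma's test had the smallest p the design allows, 0.00952, and the other 5 had no more than 0.0286. These probe sets were chosen on the same arrays, 24 of them for groups that do not overlap, which fixes the smallest p, so the permutation values restate that choice. A called gene had another called gene within 1 Mb in 72.7% of cases, against 66.3% of genes that were not called, and the share of genes with a called probe set ran from 4.46% on chromosome 6 to 7.63% on chromosome 13, with none of 12 genes on the Y chromosome.

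Genes whose alleles are known to differ between these strains were read beside the labels. The list was chosen with earlier results of these data known, so it is no independent check of them. Of its 12 measured genes, each with its brightest probe set, 3 were higher and 2 lower, beside 0.766% and 3.59% of all genes. Gbp2b and H2-Ea, above, had medians of 2.60 and 2.91 in the C57BL/6J F1, below the array medians. Ifi202b, an interferon-inducible DNA sensor, read 5.17, 5.01, 4.88 and 5.05 in the BALB/cJ F1 against 2.97 to 3.99 in the C57BL/6J F1, a rise of 1.61 ± 0.19 with an adjusted p of 0.00186 in limma. Nnt, the mitochondrial transhydrogenase of which C57BL/6J carries a deletion, rose by 1.96 ± 0.44 with an adjusted p of 0.0381 with 1 probe set in limma, and by 1.68 ± 0.46 with an adjusted p of 0.0737 with the other. Both probe sets had their highest value, 8.09 and 8.98, in BALB/cJ replicate 2, the array with the highest striated muscle score, 11.4, and the part of that tissue in the rise was not tested. The BALB/cByJ arrays read 4.78, 5.06 and 5.45 with the first probe set, near the C57BL/6J range of 3.98 to 5.40. Acads, the short-chain acyl-CoA dehydrogenase, fell by 0.53 ± 0.11 with an adjusted p of 0.0334 in limma. The calls of Acads and of the first Nnt probe set were each lost in 12 of 18 other settings. Ly6c1 was higher by 0.53 ± 0.14 with an adjusted p of 0.067, and the probe sets of Afp, Tyr, Tnfsf4, Cdkn2a and Prkdc differed by no more than 0.18 with none past the test.

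Zhx2, a transcriptional repressor, separated BALB/cJ from both other strains. BALB/cJ is known to carry a retroviral insertion in Zhx2 that its substrain BALB/cByJ lacks. Zhx2 read 4.05, 4.14, 4.20 and 4.17 in the BALB/cJ F1, from 4.76 to 5.65 with a median of 5.25 in the C57BL/6J F1, and 5.67, 5.35 and 5.50 in the BALB/cByJ F1. The BALB/cJ mean was the lowest of the 101 strains. It was lower than C57BL/6J by -1.09 ± 0.14 with an adjusted p of 0.00378, and BALB/cByJ was higher than BALB/cJ by 1.37 ± 0.11 with an adjusted p of 0.00768, both in limma. Acads, of which BALB/cByJ is known to carry a null allele, read 10.19, 9.78, 10.06 and 9.76 in the BALB/cJ F1, 10.26 to 10.65 in the C57BL/6J F1, and 9.60, 9.83 and 9.62 in the BALB/cByJ F1, and the 2 substrains did not differ past the test (adjusted p 0.407).

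**Figure D2:**
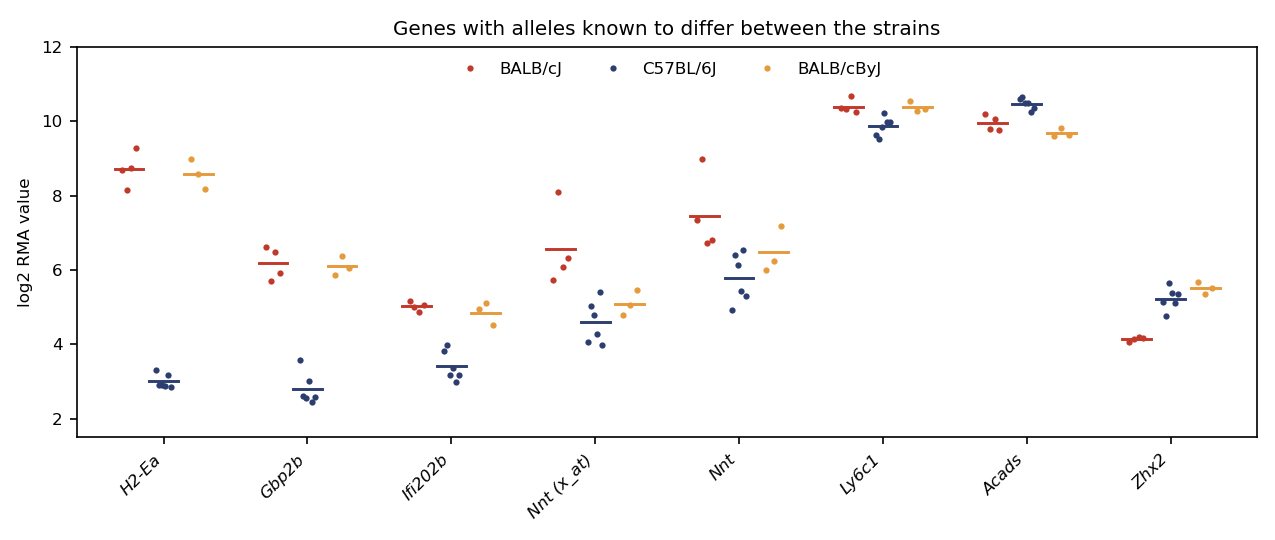
Log2 RMA value (vertical axis) of genes whose alleles are known to differ between the strains, with 1 point per array, coloured by strain, and bars at the group means. Zhx2 is low in the 4 BALB/cJ arrays, between 4.05 and 4.20, and lies above 4.7 in every array of the other strains, and Nnt is shown with both of its probe sets.

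Over all probe sets the 2 substrains differed at 24 (0.0533%), 21 higher (0.0466%) and 3 lower (0.00666%) in BALB/cByJ, and 11 of the 24 were also called between BALB/cJ and C57BL/6J. Among these 11, Ndufab1, Nfia, Eif4ebp2 and Tfpt are named after their values were seen, beside Zhx2. Of the 24 largest rises and falls above none differed between the substrains past the test, and the smallest adjusted p was 0.0998 for Rbm47. The 2 groups of 3 and 4 arrays leave differences of over 2-fold short of the test. The BALB/cByJ mean lay nearer to BALB/cJ than to C57BL/6J in 12 of the 12 rises and in 6 of the 12 falls. For H2-D1 the BALB/cByJ arrays read 8.25, 8.64 and 8.17, for Gchfr 8.14, 8.18 and 8.14, and for Gbp2b 5.86, 6.36 and 6.06. The BALB/cByJ arrays thus lay on the BALB/cJ side for all 3 genes. Among the falls, Adam12 read 8.89, 6.95 and 7.86 in BALB/cByJ, Cyp2b10 7.57, 5.69 and 8.05 and Rbm47 8.03, 7.31 and 7.65, and their means were higher than in BALB/cJ by 1.84, 1.91 and 1.19. These 3 means lay nearer to C57BL/6J, as did those of Mup3, Zfp945 and Ube2ql1. Both comparisons share the BALB/cJ arrays, and 6856 probe sets had an unadjusted p under 0.05 in limma between the substrains. The bioB controls did not overlap between BALB/cJ and BALB/cByJ, whose arrays read in or near the C57BL/6J range. Control signal and substrain thus cannot be told apart in the 24 calls. Nor can they where a BALB/cByJ mean lay nearer to C57BL/6J, here or below. The 24 became 3 without BALB/cByJ replicate 1, 2 without BALB/cByJ replicate 3, 4 without BALB/cJ replicate 2, 12 without BALB/cJ replicate 3 and 360 without BALB/cJ replicate 1.

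The CXB strains gave a reading that shared no array with the main comparison. They are recombinant inbred strains from a cross of BALB/cBy and C57BL/6By, which are substrains related to BALB/cJ and C57BL/6J and not those strains themselves. At any autosomal locus the F1 of each therefore carries either the BALB/cBy or the C57BL/6By allele opposite the C57BL/6J allele of the transgenic father. An allele found in BALB/cJ alone would not be read there. An F test among the 8 CXB strains with at least 3 arrays (31 arrays) called 5792 probe sets (12.9%). Of the 1532 probe sets called between BALB/cJ and C57BL/6J, 503 (32.8%) also differed among the CXB strains, and 12.2% of the other probe sets did. Conversely, 8.68% of those that differed among the CXB strains were called between BALB/cJ and C57BL/6J. Of the 812 called with at least a 1.5-fold difference, 346 (42.6%) differed among the CXB strains. The share of 32.8% was 16.6% without CXB1/ByJ and 21.6% without CXB8/HiAJ, where 1742 and 3336 probe sets were called in all.

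In many of the genes with the largest rises, the 9 CXB strain means fell into 2 sets near the parental means. For H2-D1, CXB1 and CXB12 had means of 8.70 and 8.60, and the other 7 strains lay between 2.73 and 3.11. For H2-Ea, the same 2 strains had 7.94 and 8.87 and the others 2.90 to 3.29. The 2 genes lie within 1 Mb of each other in GRCm38.p6. For Gchfr, 4 strains lay between 7.79 and 8.70 and 5 between 3.59 and 4.14.

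The other genes divided the strains differently. For Pdxdc1, 7 strains were near BALB/cJ (6.34 to 7.10) and 2 near C57BL/6J (2.58 and 2.63). For Gbp2b, 5 strains lay between 5.70 and 6.35 and 4 between 2.17 and 2.84. For Fbp1 there were 5 strains between 7.04 and 8.36 and 4 between 3.64 and 4.45, and for Abhd1 there were 6 between 5.92 and 6.75 and 3 between 3.52 and 3.89. In these 7 genes the gap between the 2 sets was at least 2.03 wide.

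Serpina12 and Serpina1b put the same 6 strains (CXB3, CXB6, CXB7, CXB8, CXB11 and CXB12) nearer to BALB/cJ. The means ran from 4.55 to 6.17 for Serpina12, with the other 3 strains between 2.44 and 2.57. For Serpina1b they ran from 4.01 to 5.05, with 1 of the other 3 strains, at 3.73, close below. A second called probe set of Serpina1b put 7 strains nearer to BALB/cJ, CXB2 among them. The strain means of Cxcl13 were spread without a wide gap, and Cxcl13 and Mup3 did not pass the F test (adjusted p of 0.182 and 0.068 in limma). Zhx2 passed it with an adjusted p of 0.0101 in limma, and its CXB strain means ran from 4.53 to 5.30. BALB/cByJ lacks the BALB/cJ insertion in Zhx2, so the CXB strains were not a test of that insertion. Each of the 8 strains was tested on 3 or more arrays, and CXB11, with 1 array, is in these counts but not in the F test.

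**Figure D3:**
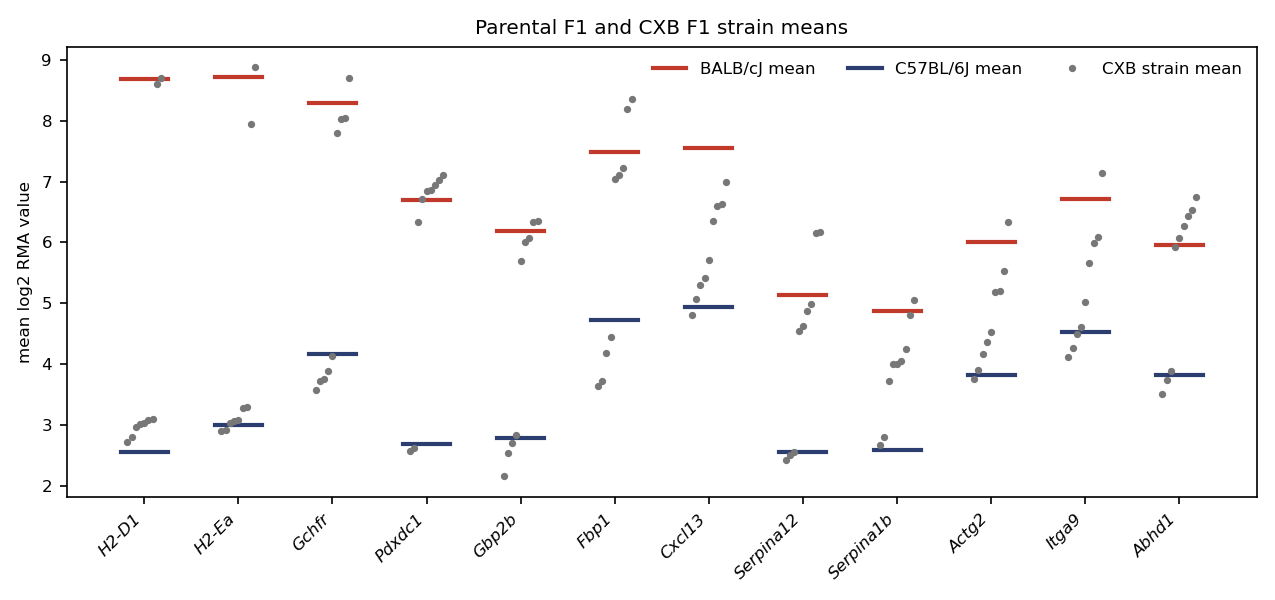
Mean log2 RMA value (vertical axis) of the 12 genes with the largest rises, with the BALB/cJ mean (red bar), the C57BL/6J mean (blue bar) and the mean of each of 9 CXB strains (grey points). The points gather near the 2 bars in H2-D1, H2-Ea, Gchfr, Pdxdc1, Gbp2b, Fbp1 and Abhd1 and are spread in Cxcl13, Actg2 and Itga9.

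Among the other 26 classical inbred strains, the side on which a strain fell differed from gene to gene. For 4930481A15Rik all 26 lay nearer to BALB/cJ than to C57BL/6J, and for Gchfr 24 did. For Zhx2 none did, and for Fbp1 4 did. Over the 1532 called probe sets the median was 50% of the strains, 46 had at least 90% and 20 had at most 10%. The BALB/cJ mean was the highest or lowest of the 101 strains at 74 of the 1532 and the C57BL/6J mean at 36.

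Genes of smooth muscle contraction gave rises and no falls in the BALB/cJ F1. The contractile apparatus of smooth muscle consists of actins, myosin and the proteins that regulate them, and its genes fall when these cells leave the contractile state. Of 24 measured genes of this list, 6 rose (Actg2, Ppp1r14a, Tpm2, Csrp1, Lmod1 and Mylk) and none fell, against 0.766% of all genes higher, and all 24 had a positive difference. Their median difference was 1.60, beside -0.05 over all genes. The difference between 3′ and 5′ probe sets of Gapdh, a sign of RNA quality, was 0.19 to 0.34 on the BALB/cJ arrays and 0.33 to 0.52 on the C57BL/6J arrays, with 3 of the 4 BALB/cJ arrays below all C57BL/6J arrays, and its part in the list's difference was not tested. In bulk tissue fewer cells of a type and less RNA per cell cannot be told apart.

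Actg2, the enteric smooth muscle actin, read 6.32, 5.49, 5.89 and 6.32 in the BALB/cJ F1 against 3.14 to 4.63 with a median of 3.85 in the C57BL/6J F1, a difference of 2.19 ± 0.30 with an adjusted p of 0.00429 in limma. Ppp1r14a, the inhibitor of myosin phosphatase known as CPI-17, read 6.97, 6.16, 6.27 and 6.70 against 3.74 to 5.24, a difference of 1.94 ± 0.28. The tropomyosin Tpm2 rose by 1.75 ± 0.33 and the LIM protein Csrp1 by 1.52 ± 0.32. None of these 4 genes had values that overlapped. From the highest mean of 101 strains, C57BL/6J ranked 91, 92, 85 and 90 for these 4 genes and BALB/cJ ranked 16, 20, 15 and 27. Of the 26 other classical strains 20, 20, 19 and 21 lay nearer to BALB/cJ. Lmod1, leiomodin, rose by 1.69 ± 0.39 with values that overlapped, and Mylk, myosin light chain kinase, by 1.68 ± 0.41.

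The canonical markers had larger errors, and Myh11 and Cnn1 also had larger differences than the called genes of the list. Myh11, smooth muscle myosin, differed by 2.71 ± 0.81 with an adjusted p of 0.0988 with its brightest probe set, Cnn1, calponin, by 2.57 ± 0.70 with an adjusted p of 0.0728, and Acta2, alpha smooth muscle actin, by 1.78 ± 0.51 with an adjusted p of 0.0847, all in limma. In each of these 3 genes the groups did not overlap, but the SD among the C57BL/6J arrays was 1.83 for Myh11, 1.56 for Cnn1 and 1.14 for Acta2, against 0.49, 0.44 and 0.26 in the BALB/cJ arrays. A dimmer probe set of Myh11, a gene within 1 Mb of Pdxdc1 on chromosome 16, passed with an adjusted p of 0.0142 in limma.

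The mean of the list on each array showed where this spread lay. It was 8.66, 8.33, 8.24 and 8.59 on the BALB/cJ arrays and 6.22, 6.20, 7.18, 7.18, 8.01 and 7.66 on the C57BL/6J arrays, so that all BALB/cJ arrays were above all C57BL/6J arrays but the nearest pair, 8.24 and 8.01, were close. C57BL/6J replicates 1 and 2, which stood apart over all probe sets, had the 2 lowest values. The BALB/cByJ arrays read 8.12, 8.53 and 8.74. Without C57BL/6J replicates 1 and 2 together, a fit chosen after seeing the data, 10 genes of the list passed rather than 6, and 1085 of the 1532 probe sets were among the 1969 called. With the list's own mean as a covariate 566 probe sets were called, 204 of the 1532 among them, and no gene of the list passed, which adjusting genes for their own mean brings about by construction. With the bioB signal as a covariate 17 genes of the list were higher. Leaving out 1 array gave 2 to 4 genes of the list without any one of the 4 BALB/cJ arrays or C57BL/6J replicate 1, 2, 3 or 4, 6 without C57BL/6J replicate 6 and 10 without C57BL/6J replicate 5.

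**Figure D4:**
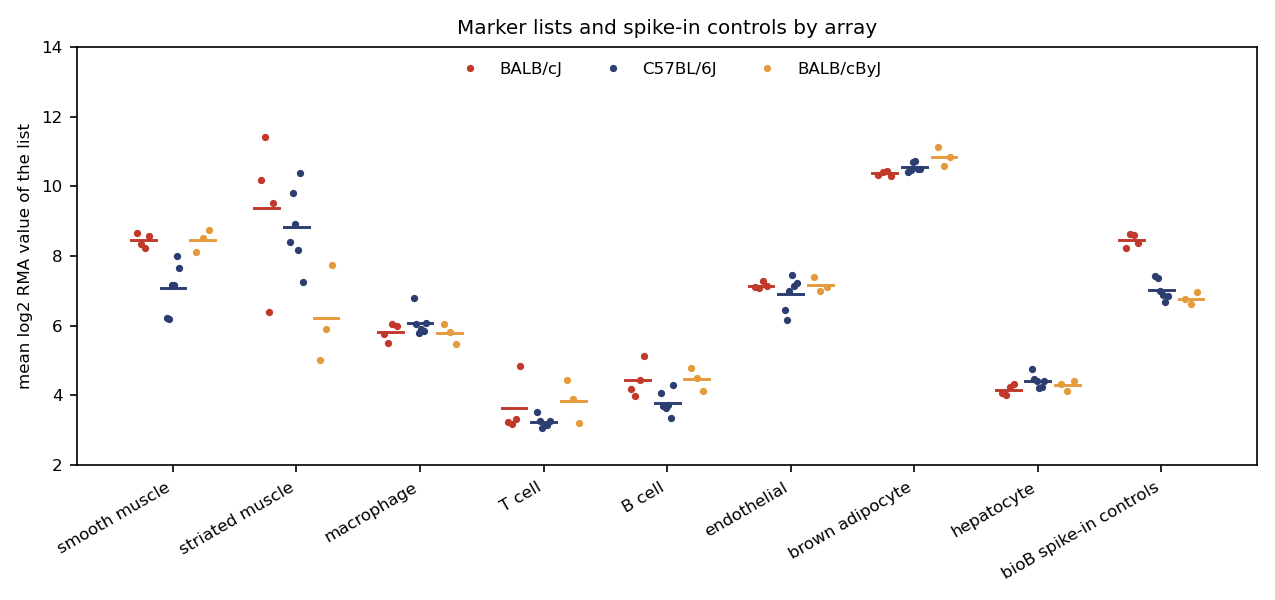
Mean log2 RMA value of marker lists and of the bioB spike-in controls (vertical axis) on each array, with 1 point per array and bars at the group means. In the smooth muscle list and the bioB controls all BALB/cJ points lie above all C57BL/6J points, and the striated muscle list is the most spread within groups, from 6.40 to 11.4 in BALB/cJ.

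Genes of the extracellular matrix moved with less uniformity. Eln, which encodes elastin and is made by smooth muscle cells, read 7.92, 7.47, 7.12 and 7.44 in the BALB/cJ F1 against 5.34 to 6.80 in the C57BL/6J F1, a rise of 1.56 ± 0.27 with an adjusted p of 0.0127 in limma. It was the only one of 15 elastic fibre genes that passed, beside 4.36% of all genes, and the median difference of these genes was -0.0037. Itga9, an integrin chain, rose by 2.18 ± 0.40, although its 2 other probe sets, at 0.10 and 0.58, did not pass. None of 15 collagen chains passed, beside 4.36% of all genes. In the CXB strains the same 4 strains (CXB1, CXB2, CXB8 and CXB11) lay nearer to BALB/cJ for Actg2, Itga9, Eln, Csrp1 and Ppp1r14a, which lie on chromosomes 6, 9, 5, 1 and 7, and CXB6 joined them for Tpm2. Csrp1, Ppp1r14a and Tpm2 did not pass the F test among the CXB strains (adjusted p of 0.0764, 0.0909 and 0.482 in limma). Actg2, Itga9 and Eln had their highest means in CXB1 (6.33, 7.14 and 7.86).

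Markers of fibroblasts and adipocytes included a few falls. Of 15 adventitial fibroblast genes 2 fell, beside 3.59% of all genes, the dipeptidase Dpep1 by 1.11 ± 0.24 and the ferritin receptor Scara5 by 0.66 ± 0.15, and all 15 differences were negative with a median of -0.33. The call of Scara5 was lost in 13 of 18 other settings. The brown adipocyte genes were high on every array, with list means of 10.3 to 10.4 in BALB/cJ and 10.4 to 10.7 in C57BL/6J, although surrounding fat had been removed. Ucp1, the uncoupling protein of brown fat, had means of 12.84 and 12.80, and Cidea of 12.56 and 12.62. Of 11 genes of that list 2 fell, beside 3.59% of all genes, Elovl3, an elongase of very long fatty acids, by 1.00 ± 0.21 and Dio2, the deiodinase that makes active thyroid hormone, by 1.23 ± 0.27, which was 0.046 with the bioB signal as a covariate. The lipase gene Pnpla2 fell by 1.08 ± 0.18, the only one of 14 general and white adipocyte genes that passed, beside 4.36% of all genes. The BALB/cByJ means lay nearer to C57BL/6J for Elovl3 (10.64 against 10.61), Dio2 (8.01 against 6.91) and Pnpla2 (4.67 against 4.78). They lay nearer to BALB/cJ for Dpep1 and Scara5.

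Lists of immune cells and related genes gave few calls. The lists of foam cells (16 genes), complement (17) and chemokines and cytokines (26) had 1 call each. None of 28 macrophage, 20 endothelial, 14 T cell, 12 B cell, 16 neutrophil and mast cell or 25 interferon-stimulated genes was called. The share over all genes was 4.36%, at which lists of this length would hold few calls. The macrophage list had a median difference of -0.23, and its smallest adjusted p values were 0.0757 for Ccr2 (-0.56) and 0.0773 for Cd163 (-0.93), with Cd68 at -0.53. The T cell and B cell lists had median differences of 0.48 and 0.53, with 11 of 14 and 9 of 12 genes positive. Jchain, made by plasma cells, was 2.22 ± 0.56 higher with an adjusted p of 0.0572 in limma. The T cell list mean was 4.86 in BALB/cJ replicate 4 and 3.18 to 3.31 in the other 3 BALB/cJ arrays, and the same array had the highest B cell list mean, 5.12. The foam cell call was Mmp9, gelatinase B, which fell by 0.72 ± 0.17. The complement call was C3ar1, the receptor of complement C3a, which fell by 0.95 ± 0.19, and the chemokine call was Cxcl13, which rose. The call of Mmp9 was lost in 14 of 18 other settings.

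Of 11 interferon-induced GTPases 2 rose, beside 0.766% of all genes. They were Gbp2b and Irgm1, the latter by 0.63 ± 0.13 with an adjusted p of 0.0264 in limma. The BALB/cByJ mean of Irgm1 was 6.02, nearer to C57BL/6J (5.90) than to BALB/cJ (6.53). Gbp2 and Gbp3 had differences of -0.15 and -0.17 that did not pass. Gbp7, within 1 Mb of Gbp2b, had 1 probe set at 0.73 with an adjusted p of 0.0436 in limma and its brightest at 0.51, which did not pass. Of 19 hepatocyte genes 1 rose (Serpina1b) and 2 fell, beside 0.766% and 3.59% of all genes (Mup3 and Apoc3, an apolipoprotein that slows lipoprotein lipase, by 1.32 ± 0.29). The defining hepatocyte markers were near the low end of the scale in both groups, with BALB/cJ and C57BL/6J means of 3.06 and 2.88 for Alb and 2.63 and 2.62 for Apoa1. None of 21 striated muscle genes passed, beside 4.36% of all genes. Their list means ran from 6.40 to 11.4 in BALB/cJ and from 7.25 to 10.4 in C57BL/6J. The smooth and striated muscle scores did not follow each other on every array, since BALB/cByJ replicate 3 had 8.74 in the first and 7.73 in the second, and BALB/cJ replicate 2 had 8.33 and 11.4.

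Genes of lipid handling gave 4 falls and 1 rise, to be read beside 3.59% and 0.766% of all genes. Of 17 genes of cholesterol biosynthesis 16 had a negative difference with a median of -0.38, and 1 passed, Cyp51, lanosterol demethylase, which read 6.10, 5.76, 5.60 and 6.01 against 6.48 to 7.14, a fall of 0.95 ± 0.13 with an adjusted p of 0.00483 in limma. Sqle, squalene epoxidase, was at -0.93 with an adjusted p of 0.0942. Among 17 genes of cholesterol efflux and scavenger uptake, Nr1h3, which encodes the liver X receptor alpha, fell by 0.67 ± 0.14, and Mylip, a target of that receptor that degrades the LDL receptor, rose by 0.58 ± 0.14. Of 18 fatty acid oxidation genes 2 fell, Acads and Decr1, the latter by 0.37 ± 0.08. The call of Mylip was lost in 14 of 18 other settings and that of Decr1 in 13. The BALB/cByJ means lay nearer to C57BL/6J for Nr1h3 (6.60 against 6.58), Mylip (8.24 against 8.00) and Cyp51 (6.46 against 6.82). They lay nearer to BALB/cJ for Acads and Decr1. No gene of oxidative phosphorylation (29 measured) passed.

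Antioxidant, xenobiotic and lysosomal genes gave few calls, to be read beside the shares of all genes that were higher (0.766%) or lower (3.59%). Sulfiredoxin (Srxn1) fell by 0.79 ± 0.13 and extracellular superoxide dismutase (Sod3) by 0.49 ± 0.12, 2 of 23 genes, where 3.59% of all genes fell. Of 18 glutathione S-transferases Gstm2 rose by 0.44 ± 0.08 and Gstm4 fell by 0.55 ± 0.11. Of 21 lysosomal genes the thioesterase Ppt1 rose by 0.57 ± 0.09 and the membrane protein Lamp2 fell by 0.30 ± 0.07. The call of Sod3 was lost in 15 of 18 other settings and that of Lamp2 in 14. The BALB/cByJ means lay nearer to C57BL/6J for Srxn1 (6.45 against 6.79), Sod3 (7.60 against 7.32) and Lamp2 (9.99 against 9.96). They lay nearer to BALB/cJ for Gstm2, Gstm4 and Ppt1. Of 21 genes that the study named for aortic expression, and chose on arrays that include these, so that they are no independent evidence, 5 fell, beside 3.59% of all genes: Nectin2 by 0.65 ± 0.10, Nnmt by 1.00 ± 0.18, Bloc1s6 by 0.54 ± 0.11, Snx10 by 0.52 ± 0.12 and Brap by 0.38 ± 0.09. The call of Snx10 was lost in 14 of 18 other settings. The BALB/cByJ means were 6.63 (Nectin2), 7.40 (Nnmt), 7.61 (Bloc1s6) and 9.68 (Snx10). Each lay nearer to the C57BL/6J mean, which was 6.60, 7.65, 7.86 and 9.74.

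Of the 37 gene lists, that of the circadian clock had the highest share of calls. The clock is a feedback loop in which the activators Arntl and Clock drive Per, Cry, Nr1d and Dbp genes through E-boxes, while the Nr1d repressors act on Arntl, Cry1 and Nfil3. The levels of all of them cycle over the day, and the labels give no hour of collection, so hour and strain cannot be told apart. The study's methods describe a fast that began in the morning before blood was taken at euthanasia, but give no hour for each mouse. Of 16 measured genes 7 were called, 5 higher (0.766% of all genes were) and 2 lower (3.59% of all genes were).

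Dbp, an output transcription factor, read 7.95, 7.08, 7.67 and 7.39 in the BALB/cJ F1 against 4.80 to 6.96 with a median of 5.75 in the C57BL/6J F1, a rise of 1.84 ± 0.36 with an adjusted p of 0.0222 in limma. Per2, a repressor of the loop, rose by 0.82 ± 0.16, Ciart, another repressor, by 1.09 ± 0.25, Nr1d2, which encodes REV-ERB beta, by 0.70 ± 0.16, and Tef, a relative of Dbp, by 0.74 ± 0.15. Arntl, the activator, read 4.17, 4.99, 4.04 and 4.28 against 4.76 to 5.86, a fall of 1.08 ± 0.23, and Cry1 fell by 0.59 ± 0.13. The values of Arntl and Tef overlapped in 1 array and those of the other 5 did not. The C57BL/6J F1 had the highest mean of all 101 strains for Arntl and Cry1, and ranked 94 for Dbp and 97 for Tef. For the called clock genes, between 15 (Ciart) and 24 (Cry1) of the 26 other classical strains lay nearer to BALB/cJ.

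The BALB/cByJ arrays were not alike in these genes. Dbp read 3.86, 7.56 and 5.44 and Nr1d2 8.21, 9.89 and 8.67, and Arntl read 6.09, 4.45 and 4.61. Replicate 1 was thus lowest for Dbp and Nr1d2 and highest for Arntl. The number of clock genes called among the BALB/cJ and C57BL/6J arrays ranged from 1 to 8 when 1 array was left out, with 1 without BALB/cJ replicate 3 or C57BL/6J replicate 3, 2 without BALB/cJ replicate 1 or C57BL/6J replicate 4, 3 without BALB/cJ replicate 2 or 4 or C57BL/6J replicate 6, and 4 without C57BL/6J replicate 5. None passed with the bioB signal as a covariate, where the differences of Tef and Ciart were -0.039 and -0.060.

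**Figure D5:**
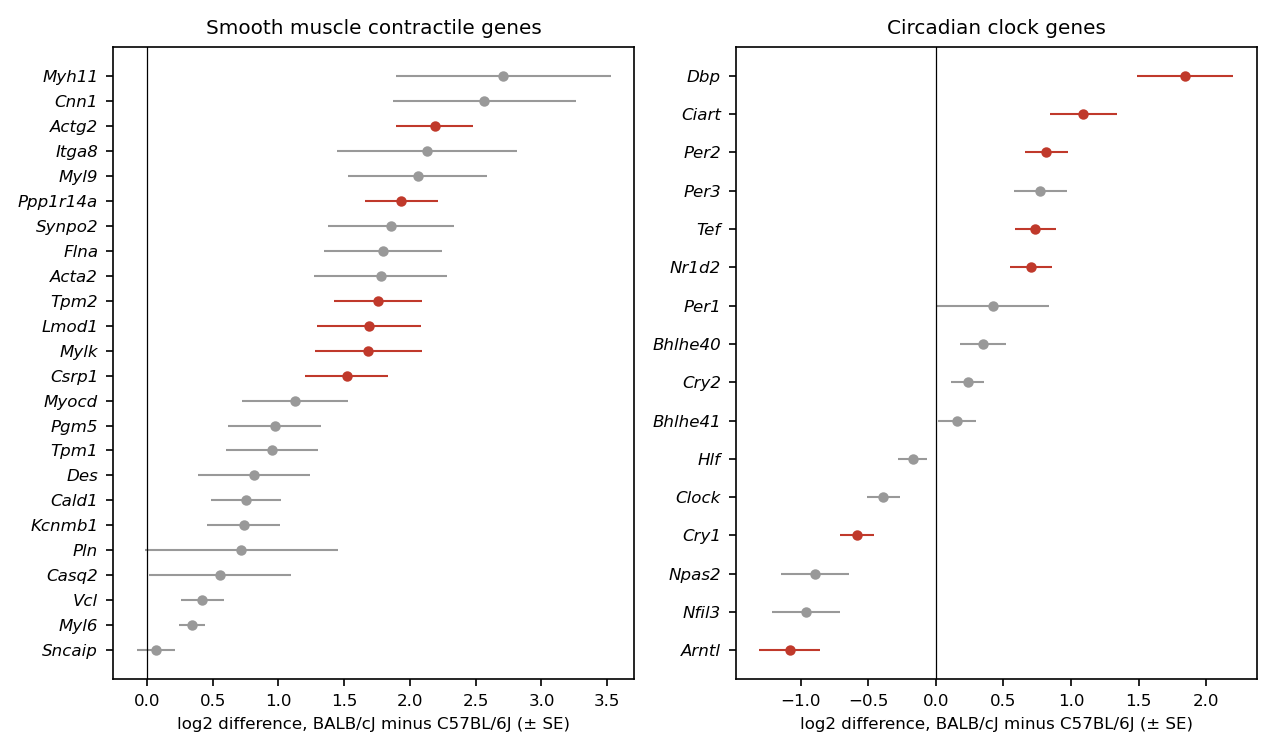
Log2 difference between BALB/cJ and C57BL/6J F1 aorta (horizontal axis, points with bars of ± 1 SE) of 24 smooth muscle contractile genes (left) and 16 circadian clock genes (right). Red points passed limma's test at an adjusted p of 0.05, and grey points did not. All smooth muscle points lie right of 0, and the clock genes lie on both sides, Dbp at 1.84 and Arntl at -1.08.

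The promoters of 4 of the called clock genes are shown because they hold an E-box or the half-site of a ROR element. The half-site was matched without its flanking bases, so it does not mark a full ROR element. Where a gene had several windows, one that holds the element is shown. The sequences are the 250 bases before the start in RefSeq GRCm38.p6, 5′ to 3′ on the gene's strand, with the E-box (CACGTG, which reads the same on both strands) or the ROR element half-site (AGGTCA, or TGACCT on the other strand) in capitals. Ciart on the minus strand, chr3:95882229-95882478, has 3 E-boxes, 116, 58 and 44 bases before the start. Tef on the plus strand, chr15:81802423-81802672, and Cry1 on the minus strand, chr10:85185055-85185304, have 1 each, 127 and 60 bases before it. Nr1d2 on the minus strand, chr14:18239107-18239356, has 1 half-site, 77 bases before it.
Ciart: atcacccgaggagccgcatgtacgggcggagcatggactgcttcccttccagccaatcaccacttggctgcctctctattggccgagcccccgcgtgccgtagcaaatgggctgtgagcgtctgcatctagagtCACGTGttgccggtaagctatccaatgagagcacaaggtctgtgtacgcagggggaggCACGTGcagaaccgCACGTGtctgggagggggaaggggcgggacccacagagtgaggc
Tef: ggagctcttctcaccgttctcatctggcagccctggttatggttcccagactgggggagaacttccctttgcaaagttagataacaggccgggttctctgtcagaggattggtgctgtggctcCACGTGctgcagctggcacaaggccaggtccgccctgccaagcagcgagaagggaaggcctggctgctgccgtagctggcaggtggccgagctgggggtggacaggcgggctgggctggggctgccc
Cry1: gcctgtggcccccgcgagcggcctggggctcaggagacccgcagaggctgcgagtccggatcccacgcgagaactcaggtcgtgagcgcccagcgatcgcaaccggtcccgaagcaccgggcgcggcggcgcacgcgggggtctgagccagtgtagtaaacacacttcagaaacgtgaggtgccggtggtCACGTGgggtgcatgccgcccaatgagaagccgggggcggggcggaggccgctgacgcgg
Nr1d2: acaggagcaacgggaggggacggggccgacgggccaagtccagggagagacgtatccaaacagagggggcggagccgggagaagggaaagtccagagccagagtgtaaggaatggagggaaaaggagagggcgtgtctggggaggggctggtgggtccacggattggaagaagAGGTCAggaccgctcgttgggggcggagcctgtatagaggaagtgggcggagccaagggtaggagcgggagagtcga

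Of 32851 promoter windows 6.02% held an E-box and 14% the half-site. A gene can have several windows and was counted as holding an element if any of them did. The shares of windows and the counts of genes are therefore not in the same unit. Of the 14 clock genes that had a window, 5 held an E-box (Bhlhe41, Ciart, Cry1, Per1 and Tef) and 4 the half-site (Clock, Nfil3, Nr1d2 and Per1). Of these 8 genes, Ciart, Tef and Nr1d2 rose and Cry1 fell. Bhlhe41, Per1, Clock and Nfil3 did not pass, with differences of 0.16, 0.42, -0.39 and -0.96. The CArG box, the element of serum response factor, was held by 3 of 20 smooth muscle genes (Myl6, Myl9 and Vcl) and by 1.47% of all windows, and none of the 3 passed the test between the strains.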

How the data were processed

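The deposited values were log2 expression values per probe set, which the authors made from Affymetrix arrays with GCOS and RMA, per the labels (versions not given in the sources used here). For the platform, HT_MG-430A stands in the labels, whereas a PM array of this family is given in the study's methods and in the probe set names. RMA scales arrays to each other, and a base difference between strains under a probe can change its signal, which was not tested. The 104 control probe sets were left out. Of the rest, 28898 had 1 gene in the platform annotation, 551 several and 15588 none. Groups came from the strain labels. limma 3.58.1 in R 4.3.3 (lmFit and eBayes, two-sided, Benjamini-Hochberg over 45037 probe sets, adjusted p of 0.05) was the test, without covariates, and ± gives the SE. Exact permutation tests used scipy 1.17.1, and the fit was tested on simulated data. Gene lists used the probe set with the highest mean. The text names the 12 largest rises and 12 largest falls among called probe sets without overlap, the known alleles, up to 4 called members of each list (2 where none was called) and up to 8 genes of the list with most calls. Members and lists were chosen with earlier results of these data known. Each array is 1 mouse, so p-values measure the spread between mice, and the number of arrays limits the precision. Alternatives covered moderation, array weights, scaling, filters and left-out arrays. Promoters came from RefSeq GRCm38.p6.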

Additional observations from a re-analysis of the deposited data

Results flagged for a closer look

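In 62 groups of single genes or marker lists checked, 4 had 1 array far from the others by Dixon's ratio, and chance flags about 1 in 20 groups. The BALB/cJ array 4 stood apart in Ccdc122 (ratio 0.858) and in the T cell list (0.919), and C57BL/6J array 1 in Zfp945 (0.665) and in the macrophage list (0.704, with a list mean of 6.79). Zhx2 was 1.37 higher in BALB/cByJ than in BALB/cJ on the log2 scale, with an adjusted p of 0.00768 in limma and all 3 BALB/cByJ arrays above all 4 BALB/cJ arrays. The bioB spike-in controls, which no comparison of the report uses as a measurement, were 1.42 higher on the BALB/cJ arrays than on the C57BL/6J arrays, and with this signal as a covariate 173 of the 1532 called probe sets were among the 1883 called.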

How the results depend on the processing

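No paired analysis was possible because the replicate numbers are in accession order and the labels tie no BALB/cJ mouse to a C57BL/6J mouse. Array weights gave 528 higher probe sets. With all arrays in one fit 2804 were called (712 higher, 2092 lower), with 76 list genes, 12 of them of smooth muscle. With 1 probe set per gene in a fit of its own 959 were called (188 higher, 771 lower), and with a 1.5-fold minimum 812 (579 lower). Leaving out 1 array gave 685 to 1726 calls, 158 to 686 higher, 523 to 1040 lower, 22 to 45 list genes, 2 to 10 smooth muscle genes, 1 to 8 clock genes and 38 to 57 named probe sets. The 1726 came without BALB/cJ replicate 1, where 60.3% were lower and 1071 of the 1532 were shared, and the 685 without C57BL/6J replicate 3, where 676 were shared. The next 4 fits were chosen after seeing the data. Without C57BL/6J replicates 1 and 2, 10 smooth muscle genes passed. With the smooth muscle score as a covariate 566 probe sets were called (93 higher, 473 lower), with 15 list genes, 0 of smooth muscle, 4 of the clock and 23 named probe sets. With the striated muscle score 952 were called (719 lower), with 3 smooth muscle and 4 clock genes. With the bioB signal 1356 were higher and 527 lower, with 17 smooth muscle genes, 0 clock genes and 14 named probe sets. In that fit the differences were -0.66 and -0.76 for the 2 probe sets of Cxcl13, 0.50 for Zfp945 and 0.10 for Ube2ql1. They were 0.046 for Dio2, -0.039 for Tef and -0.060 for Ciart. The groups do not overlap in bioB, so these values are extrapolations and not corrected strain differences. Between the substrains 53 were called with an intensity trend and robust moderation, 878 with all arrays in one fit and 2 to 360 with 1 array left out. The CXB strains gave 1742 to 6996 calls with 1 strain left out, and 16.6% to 40.9% of the 1532. Of the 67 named probe sets that passed, 32 passed in all 14 planned settings and 4 in all 18 (H2-D1, H2-Ea, Pdxdc1 and 2610507I01Rik). The causes of these changes were not tested. Signal near the low end of the scale limits the dimmest genes.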
